A study of Homo sapiens with 7 samples.

Results

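Histone genes of the replication-dependent kind were followed in K562 cells, a human line from chronic myeloid leukemia in blast crisis that is driven by the fusion kinase BCR::ABL1, as the cells became resistant to dasatinib, a kinase inhibitor. The members were the genes whose older symbol runs from HIST1H to HIST4H and whose deposited counts summed to at least 50 over the 7 libraries. By this rule 59 of 25702 gene IDs were members, from 72 IDs with such a symbol, and 22 of the 59 reached 10 CPM (counts scaled to the size of the library) in at least 2 libraries and entered the test. Of the 59, 5 encode the linker histone H1, 15 H2A, 19 H2B, 10 H3 and 10 H4, and 2 of the H2B genes (HIST2H2BC and HIST2H2BA) are annotated as pseudogenes.

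RNA was sequenced from 7 K562 lines with 1 library each. The control group held the drug naive line and the line kept in the vehicle DMSO. The dasatinib resistant (DasR) lines were intermediates of 1 serial dose escalation: 10, 15 and 25 nM formed the early stage group, and 50 and 200 nM the late stage group. The study set these stages from the clustering of the same libraries, so the groups are not independent of the expression values. All 7 derive from the same parental line, and no line has a repeat library. The p-values set group differences against a spread between lines that all groups share. Lines of a DasR stage are successive steps of the same escalation, so they are not independent replicates. In the DasR lines, exposure to dasatinib and selection by it cannot be told apart. Counts in genes totalled 21007761 for the drug naive and 24037893 for the DMSO library, 27808639, 27844799 and 20059656 for the early stage libraries in order of dose, and 20827519 and 21588772 for the late stage libraries.

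The labels call the cells erythroblasts, and all 13 erythroid markers had counts in all lines. Their summed CPM was 4034 and 3626 in the drug naive and DMSO lines, 12278, 13846 and 10706 in the 10, 15 and 25 nM lines, and 6840 and 4819 in the 50 and 200 nM lines. HBG2, a fetal globin, was the most abundant summed over the lines and in 5 of them, and HBZ, an embryonic globin, exceeded it in the 15 nM line (2856 against 2283 CPM) and was level with it in the 25 nM line. Of these markers, 11 of 13 lay above both controls in every early stage line, beside 35.9% of all tested genes. In both late stage lines 6 of 13 did, beside 34.3%, and the part of these markers in the histone values was not tested. Markers of other blood cells were low or incomplete: CD2 had 0 to 3 counts a library, MS4A1 0 to 1, and PF4 and GP9 0 to 1, whereas CD3D had 76 to 639, LYZ 684 to 2817 and ITGA2B 166 to 2141. The summed CPM of the 4 megakaryocyte markers was 69.6 and 59.8 in the controls, 16.3, 8.51 and 15.6 in the early stage lines, and 60.1 and 102 in the late stage lines. ITGA2B was the most abundant of them in all lines, at 5.96 of the 8.51 CPM in the 15 nM line and 99.2 of the 102 in the 200 nM line.

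Replication-dependent histone genes supply the core and linker histones that package newly copied DNA, and they are transcribed mainly in S phase. Their mRNAs usually end in a short stem-loop in place of a poly(A) tail. SLBP binds the stem-loop, the U7 snRNP guides the cut behind it, and NPAT switches on transcription at the histone gene clusters. Some members also make longer, polyadenylated transcripts, which are known from cells that differentiate or stop dividing. In bulk RNA, fewer cells in S phase and less histone RNA per cell cannot be told apart. The labels name the molecule as polyA RNA, but the protocol describes removal of ribosomal and non-coding RNA, and which of these set the recovery of stem-loop mRNAs was not tested. Some RNAs that lack a poly(A) tail were present in all libraries. RN7SK, the small nuclear RNA that holds back the elongation factor P-TEFb, had 2006 to 6679 counts. Others were near or at 0, such as RNU12 with 0 to 6 counts and RNU4ATAC with 0 to 3. The summed CPM of 14 such short RNAs, a list drawn up after the values were seen, was 812 and 715 in the controls, 523, 932 and 817 in the early stage lines, and 710 and 1908 in the 50 and 200 nM lines. Its highest value, in the 200 nM line, came largely from RN7SL2 (903 CPM) and RN7SL1 (763 CPM), the RNAs of the signal recognition particle.

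The stem-loop was searched for in the 150 bases after each stop codon (build GRCh37/hg19), to show which members carry the element that marks the family. It was found in 51 of 54 members that could be placed, starting 22 to 67 bases from the stop codon. Its 16 bases took 7 forms, and the 4 carried by more than 1 member are given 5′ to 3′, with capitals at the bases that differ from the commonest form.
Commonest form, 32 members of H1, H2A, H2B and H3, among them HIST1H1C, HIST1H3H and HIST2H2BF: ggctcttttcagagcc
Form in 7 members, among them HIST1H2BK, HIST1H2BJ, HIST1H2BD and HIST1H2BC: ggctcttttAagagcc
Form in 5 H4 members, among them HIST1H4H and HIST1H4C: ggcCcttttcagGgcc
Form in 4 H4 members, HIST2H4A, HIST2H4B, HIST1H4I and HIST1H4K: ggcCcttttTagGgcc
Each of the 9 placed H4 members had one of the last forms. HIST1H2BK carried its stem-loop at chr6:27114145-27114160, HIST1H4H at chr6:26285359-26285374 and HIST2H2BF at chr1:149783440-149783455, all on the minus strand.

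Promoters of the 3 members on which the comparisons turn are shown for the motifs that were searched in all member promoters. They are RefSeq sequence of build GRCh38.p14, 5′ to 3′ on the strand of the gene, 250 bases up to the transcript start, with capitals at matches on either strand to 4 motifs. These were CCAAT (the box bound by NF-Y), TATAAA (the core promoter element bound by TBP), ATTTGCAT (the octamer bound by POU2F1, a known H2B promoter element) and GGTCCG (the core of the H4 element bound by HINFP). No motif contains another.
HIST1H2BK, chr6:27146859-27147108, minus strand: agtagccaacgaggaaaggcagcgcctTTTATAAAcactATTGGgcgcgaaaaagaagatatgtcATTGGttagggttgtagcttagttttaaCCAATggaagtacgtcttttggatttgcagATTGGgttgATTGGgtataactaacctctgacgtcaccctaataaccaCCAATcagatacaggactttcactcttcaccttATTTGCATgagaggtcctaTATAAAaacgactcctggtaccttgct
HIST2H2BF, chr1:149812371-149812620, minus strand: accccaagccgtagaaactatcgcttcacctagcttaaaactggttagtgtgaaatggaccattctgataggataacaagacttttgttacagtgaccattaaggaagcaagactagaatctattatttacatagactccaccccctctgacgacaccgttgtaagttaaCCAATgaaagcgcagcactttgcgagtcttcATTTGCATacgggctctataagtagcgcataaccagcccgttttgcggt
HIST1H4H, chr6:26285535-26285784, minus strand: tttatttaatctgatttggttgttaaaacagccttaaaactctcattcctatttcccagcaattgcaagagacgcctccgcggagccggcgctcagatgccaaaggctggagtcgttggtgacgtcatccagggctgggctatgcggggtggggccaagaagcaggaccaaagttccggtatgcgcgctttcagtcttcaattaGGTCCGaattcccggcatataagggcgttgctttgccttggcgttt
A promoter was found for 54 members. CCAAT was in 85.2% of them (33% of all 27305 promoters), in every H1, H2A, H2B and H3 promoter but in 1 of 9 for H4. GGTCCG was in 9 of 9 H4 promoters and in 22.2% of all the members (9.33% of all promoters). The octamer was in 13 of 17 H2B and 9 of 14 H2A promoters, in 1 of 9 for H3 and in none of the 5 H1 and 9 H4 promoters, or in 42.6% of members against 1.66% of all promoters. TATAAA was in 66.7% of members (11.1% of all promoters), 4 of 9 H4 promoters among them. Head-to-head H2A and H2B genes share much of this stretch, so a match on either strand was counted for both members. The octamer of HIST1H2AG and HIST1H2BJ is such a shared match, so the counts are not of independent sites. A match of letters is a description and no evidence of binding.

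Levels differed far more between members than between lines. Together the 59 members took 0.127% to 0.187% of the counts of a library. HIST1H2BK, an H2B gene (NCBI gene 85236, hg19 chr6:27114140-27114634), held 98175 counts over the 7 libraries and 37.4% of the mean member CPM, and HIST1H1C, which encodes the linker histone H1.2 (gene 3006, chr6:26055968-26056698), held 55075 counts and 21.2%. A further 20 members averaged 10 to 100 CPM, 28 averaged 1 to 10 CPM and 9 averaged under 1 CPM. The 37 members left out of the test held 68 to 1313 counts each over the 7 libraries (median 393). Among them were genes widely used as S phase markers: HIST1H3B with 1195 counts, HIST1H4C with 367, placed 42nd, and HIST1H1B with 190.

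**Figure D1:**
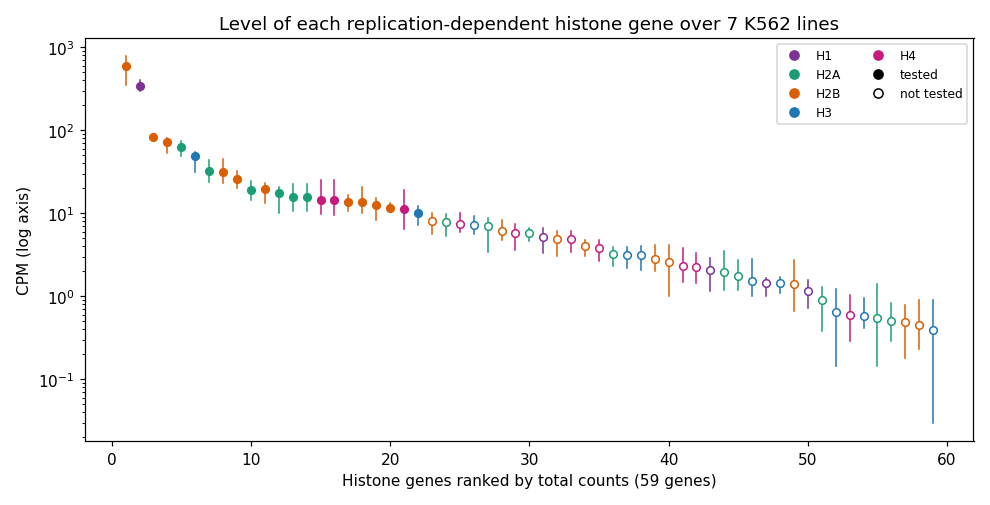
CPM (log axis) of the 59 histone genes, ranked by total counts and colored by class: points are means over the 7 lines, vertical lines the range over lines, and filled points the 22 genes tested. HIST1H2BK (mean 599 CPM) and HIST1H1C (339 CPM) stand above all other members, and values under 0.03 CPM are drawn at 0.03.

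Per kilobase of the exon length in the deposited tables, the highest mean levels were 714 CPM per kb for HIST1H2BK, 463 for HIST1H1C, 152 for HIST1H2BJ, 115 for HIST1H2AC and 102 for HIST1H3H. HIST2H2BE, next after HIST1H1C by CPM (83.4), had 37.5 CPM per kb because its counted length is 2223 bases. Gene models were taken from GENCODE on GRCh37, whereas the deposited counts are per NCBI gene. The longest model ran over 50 bases past the stem-loop in 14 members (median 3708 counts, 12 tested). It ended near the stem-loop in 37 (median 529 counts, 7 tested). HIST2H2BF had a model reaching 29195 bases past its stem-loop and HIST1H4H one reaching 7522, both with introns, whereas the single HIST1H2BK model ended 5 bases past it although its counted length was 839 bases. The counted exon length was 2386 bases for HIST2H2BF, but 374 for HIST1H4H, 438 for HIST1H2BC and 496 for HIST3H2A. Parts of a model outside the counted exons did not enter the counts. Within the counted exons, gene counts do not separate stem-loop mRNAs from longer transcripts.

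Several H2A and H2B genes lie head to head and share the stretch between their starts, and 9 such pairs were placed. Over the 7 libraries HIST1H2BK held 98175 counts and its neighbor HIST1H2AH 283, a ratio of 347, with 330 bases between their coding starts. HIST2H2BE held 13583 counts against 333 for HIST2H2AC, a ratio of 40.8. HIST3H2A held 5324 against 233 for HIST3H2BB, a ratio of 22.9, so here the H2A gene was the higher. The remaining 6 pairs had the H2B gene higher in 3 and the H2A gene higher in 3, and 1 of the 6 differed by more than 5-fold (HIST1H2AJ over HIST1H2BM, 6.78).

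**Figure D2:**
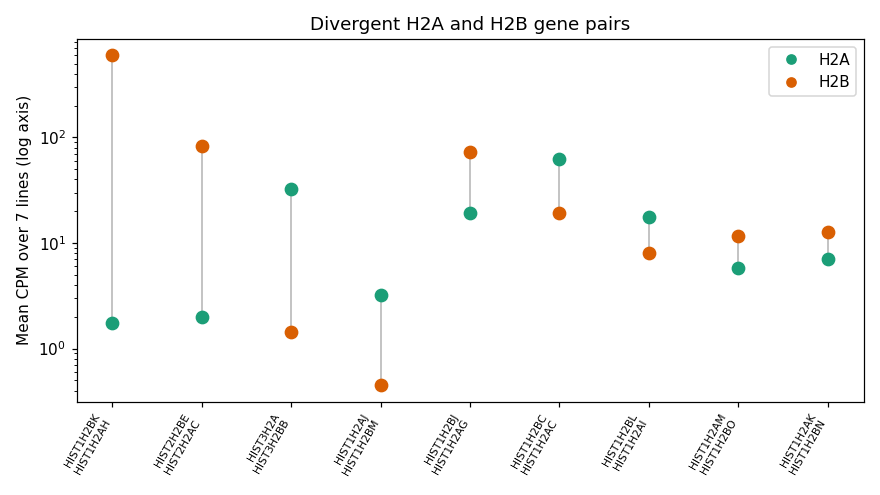
Mean CPM over the 7 lines (log axis) of the H2A and H2B gene of each of 9 head-to-head pairs, joined by a grey line. The HIST1H2BK and HIST1H2AH pair is the farthest apart, at 599 and 1.74 CPM.

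The copies HIST2H2AA3 and HIST2H2AA4 (2575 and 2583 counts), HIST2H4A and HIST2H4B (2381 and 2409) and HIST2H3A and HIST2H3C (516 and 519) are near identical and may share reads, so the split within a pair is uncertain. Both copies are counted as members in the counts given, though they are not independent measurements. The library kit keeps strand, but the strand setting of the counting is not given in the sources used here, so members that overlap another gene are uncertain.

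Summed over a class, H2B was higher in all DasR lines and H4 lower in late stage lines. The H2B sum was 659 and 818 CPM in the drug naive and DMSO lines, 932, 1031 and 1106 in the 10, 15 and 25 nM lines, and 849 and 1006 in the 50 and 200 nM lines. All 5 DasR lines lay above both controls. The H4 sum was 70.6 and 101 CPM in the controls, 58.3, 73.2 and 73.7 in the early stage lines, and 46.3 and 49.6 in the late stage lines. Both late stage lines lay below both controls, and the early stage lines overlapped them. The H1 sum, nearly all HIST1H1C, was 362 ± 68.2 CPM (SD, n = 2) in controls, 343 ± 41.5 (n = 3) in early stage lines and 343 ± 60.4 (n = 2) in late stage lines. H2A stood at 186 ± 21.9, 215 ± 12.2 and 167 ± 2.00, and H3 at 66.8 ± 15.2, 83.5 ± 2.29 and 75.9 ± 5.84. These sums were not tested.

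**Figure D3:**
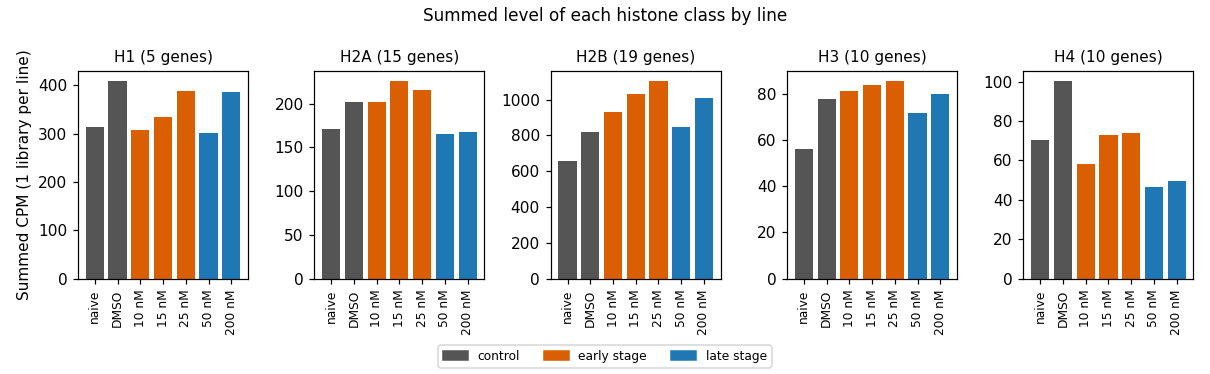
Summed CPM of each histone class in each of the 7 lines (bars start at 0, 1 library per line; grey control, orange early stage, blue late stage). H2B bars of all 5 DasR lines exceed both controls, and H4 bars of both late stage lines lie below them.

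HIST1H2BK set the H2B sum. Over all 59 members the summed CPM was 1439 ± 239 in controls, 1733 ± 145 in early stage lines and 1562 ± 181 in late stage lines. Without HIST1H2BK it was 1029 ± 154, 1026 ± 72.8 and 936 ± 84.6, so that the early stage mean no longer exceeded the control mean. HIST1H2BK made up 27.5% of the summed CPM for drug naive cells and 41.8% for the 25 nM line.

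The comparison of early stage with control lines addressed which genes differ in the 10 to 25 nM lines. HIST2H2BF was lower and was the only member called by edgeR, whereas HIST1H2BK, HIST1H2AI, HIST1H3H and HIST1H2BJ were higher and HIST1H4H, HIST1H2BG and HIST1H2BD lower at a looser threshold. The edgeR quasi-likelihood test, adjusted by Benjamini-Hochberg to a false discovery rate (FDR) of 0.005, called 1 of 22 members, or 4.55%, beside 18.0% of the 10452 genes tested. By direction, 1 member was lower beside 10.1% of all genes, and 0 were higher beside 7.92%. At an FDR of 0.05 it called 8 members, 36.4%, beside 46.5% of all genes: 4 higher (18.2%, all genes 22.6%) and 4 lower (18.2%, all genes 24.0%). The share of members called was below that of all genes at both thresholds, a difference that rests on 22 members and was not tested. DESeq2 called 5 members at 0.005, adding HIST1H4H, HIST1H2BJ, HIST1H2BK and HIST1H3H to HIST2H2BF, beside 33.9% of all genes. Of the 22, 11 were higher and 11 lower, with a median log2 fold change of -0.03 (all genes 0.00, with 50.2% of them higher).

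HIST2H2BF, an H2B gene on chromosome 1 (gene 440689), stood at 39.7 and 44.8 CPM in the drug naive and DMSO lines, 23.4, 28.5 and 26.7 in the 10, 15 and 25 nM lines, and 24.7 and 30.2 in the 50 and 200 nM lines. All DasR lines were below both controls. Its log2 fold change in the early stage was -0.71 (SE 0.13, adjusted p = 0.00465, edgeR). The call was lost in 7 of 14 alternatives, namely without either control line or any 1 early stage line, with scaling by the library total and with a filter of 1 CPM, with log2 fold changes of -0.77 to -0.63 over all alternatives.

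HIST1H2BK was measured at 349 and 470 CPM in the drug naive and DMSO lines, 635, 705 and 781 in the 10, 15 and 25 nM lines, and 557 and 694 in the 50 and 200 nM lines. Every DasR line lay above both controls, and the early and late stage lines overlapped. Its early stage log2 fold change was 0.77 (SE 0.15, adjusted p = 0.00645 by edgeR), which missed the 0.005 threshold, and DESeq2 called it. HIST1H2BJ, the H2B gene with the next highest level per length, had 53.8 and 66.0 CPM in controls, 78.2, 81.0 and 77.7 in the early stage lines and 74.1 and 80.4 in the late stage lines. Here too the DasR lines were all above the controls (log2 fold change 0.38, SE 0.10, edgeR adjusted p = 0.0154).

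HIST1H3H, the H3 gene with the highest level (gene 8357, chr6:27777829-27779078), had 31.3 and 42.8 CPM in controls, 54.4, 53.7 and 55.1 in the early stage lines and 50.3 and 50.8 in the late stage lines. The spread within each DasR stage was far smaller than between the controls, and no line overlapped them (early stage log2 fold change 0.54, SE 0.12, edgeR adjusted p = 0.0103). HIST1H2AI, an H2A gene, had 9.95 and 14.9 CPM in controls, 20.7, 18.9 and 20.3 in the early stage lines and 19.1 and 18.9 in the late stage lines. Its early stage log2 fold change was 0.67 (SE 0.17, edgeR adjusted p = 0.0166). HIST2H2AA3 and HIST2H2AA4 also lay above both controls in every early stage line but did not pass at 0.05 (log2 fold changes 0.59 and 0.61, SE 0.21 for both, edgeR).

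**Figure D4:**
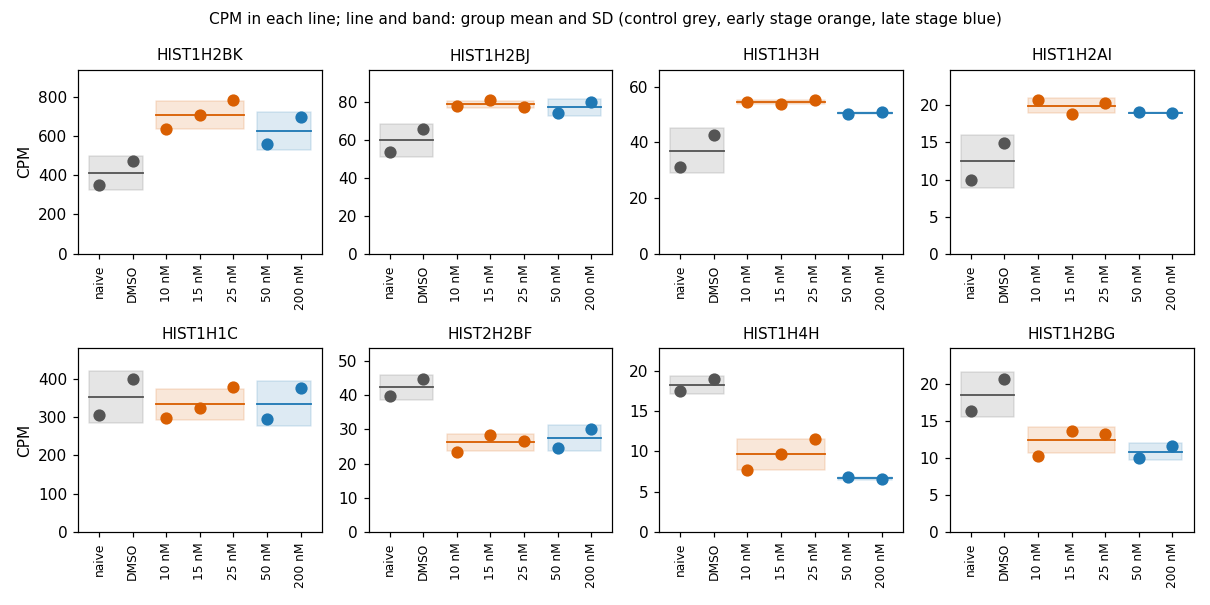
CPM of 8 tested members in each of the 7 lines (axes start at 0), with group means as lines and SD as bands. HIST1H2BK, HIST1H2BJ, HIST1H3H and HIST1H2AI lie above both controls in every DasR line, HIST2H2BF, HIST1H4H and HIST1H2BG below them, and HIST1H1C overlaps.

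HIST1H2BG, a further H2B gene, had 16.4 and 20.8 CPM in controls, 10.4, 13.6 and 13.3 in the early stage lines and 10.0 and 11.7 in the late stage lines. HIST1H2BD had 32.7 and 31.3 CPM in controls, 25.4, 23.2 and 21.0 in the early stage lines and 20.4 and 28.6 in the late stage lines. Both were below the controls in every DasR line (early stage log2 fold changes -0.59 and -0.48, edgeR adjusted p = 0.0286 and 0.0448). Some of the early stage calls at 0.05 were lost with 1 line fewer. Without the drug naive line HIST1H2BJ was at 0.27 (edgeR adjusted p = 0.0902) and HIST1H2AI at 0.43 (edgeR adjusted p = 0.0787), whereas HIST1H3H, at 0.36, still passed (edgeR adjusted p = 0.0431). HIST1H2AI also missed 0.05 without the 25 nM line, HIST1H2BG missed it without either control, the 10 nM or the 25 nM line, and HIST1H2BD without either control, the 15 nM or the 25 nM line. HIST1H2BD also missed 0.05 with scaling by the library total alone and with the filter of 1 CPM (edgeR adjusted p = 0.0518 and 0.0541). Over all alternatives the log2 fold change was -0.73 to -0.45 for HIST1H2BG and -0.55 to -0.41 for HIST1H2BD. The H2B class was thus split, with 5 tested members higher and 5 lower in the early stage. HIST1H1C had 304 and 400 CPM in controls, 298, 323 and 378 in the early stage lines and 294 and 376 in the late stage lines. These groups overlapped, with a log2 fold change of -0.09 in both stages (SE 0.16 and 0.17).

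**Figure D5:**
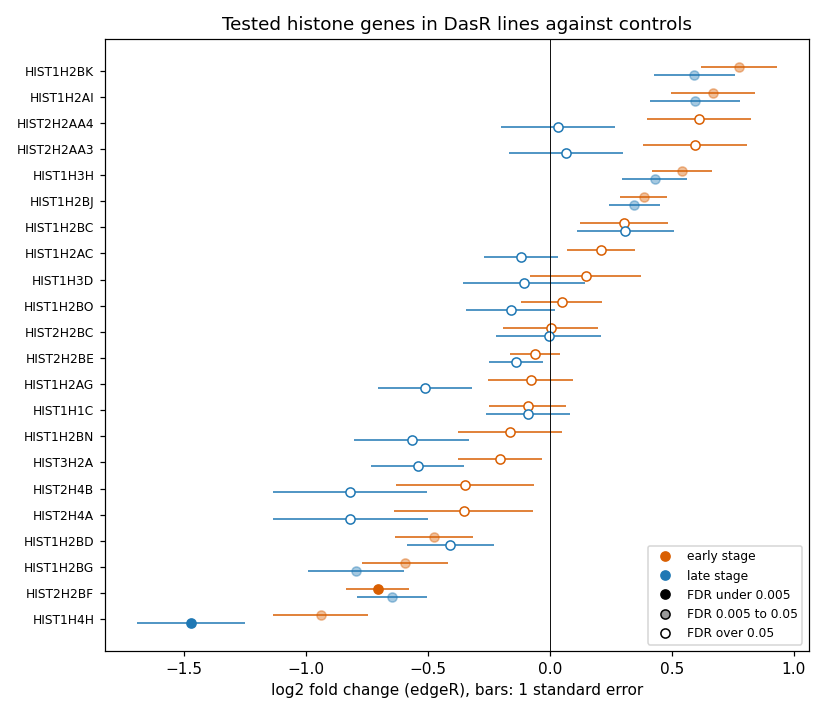
Log2 fold change (edgeR) of each of the 22 tested members in the early stage (orange) and late stage (blue) against control, with bars of 1 standard error and filled points for an FDR under 0.005, pale points up to 0.05 and open points above it. HIST2H2BF is filled in early stage lines and HIST1H4H in late stage lines, and HIST1H2BK has the highest early stage value.

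By CPM, 6 of 22 members (27.3%) lay above both controls in every early stage line, beside 35.9% of all tested genes, and 4 (18.2%) lay below both, beside 34.0%. For the late stage 4 (18.2%) lay above, beside 34.3%, and 10 (45.5%) below, beside 33.4%. Both HIST2H2AA copies are among the 6 and both HIST2H4 copies among the 10. The 4 above in the late stage (HIST1H2BK, HIST1H2BJ, HIST1H3H and HIST1H2AI) were also above in the early stage, and both comparisons share their controls.

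The late stage comparison with control asked the same of the 50 and 200 nM lines. HIST1H4H fell and was the only member called by edgeR, whereas DESeq2 also called HIST2H2BF (lower) and HIST1H2BK (higher). HIST1H4H (gene 8365, chr6:26277837-26285866) had 17.5 and 19.0 CPM in the drug naive and DMSO lines, 7.70, 9.66 and 11.5 in the 10, 15 and 25 nM lines and 6.82 and 6.53 in the 50 and 200 nM lines. Its levels were lower in all 5 DasR lines and lowest in the late stage. The late stage log2 fold change was -1.47 (SE 0.22, edgeR adjusted p = 0.00388), and the early stage one was -0.94 (SE 0.19, edgeR adjusted p = 0.00735). The gene reached 10 CPM in only 3 libraries, both controls and the 25 nM line. The late stage log2 fold change stayed at -1.51 to -1.42 over all 14 alternatives, but the call was lost in 7 of them: without either control, either late stage line, the 15 nM or the 25 nM line, which enter only the shared estimate of the spread, and with only the 2 groups in the fit.

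That call was 1 of 22 members (4.55%) beside 7.98% of all tested genes at an FDR of 0.005 (edgeR), with 1 lower beside 4.56% and 0 higher beside 3.42%. The 3 members called by DESeq2 stood beside 23.9% of all genes. At 0.05 there were 7 members (31.8%) beside 33.9%, 4 of them higher (all genes 16.2%) and 3 lower (all genes 17.6%). The 7 were those called at 0.05 in the early stage, apart from HIST1H2BD. The late stage log2 fold changes were 0.59 for HIST1H2BK (SE 0.17, edgeR adjusted p = 0.0310), 0.35 for HIST1H2BJ, 0.43 for HIST1H3H and 0.59 for HIST1H2AI, and -0.65 for HIST2H2BF and -0.80 for HIST1H2BG. Without the drug naive line they were 0.42 for HIST1H2BK, 0.23 for HIST1H2BJ, 0.25 for HIST1H3H and 0.36 for HIST1H2AI, with edgeR adjusted p of 0.153 to 0.175. HIST1H2BJ, HIST1H3H and HIST1H2AI passed 0.05 only when the line left out was DMSO, and HIST1H2BK also missed it without the 200 nM line. HIST2H2BF missed it without either control or the 50 nM line, and HIST1H2BG without the DMSO or the 50 nM line, while over all alternatives their log2 fold changes stayed at -0.79 to -0.52 and -0.93 to -0.65. Of the 22 members 7 were higher and 15 lower, with a median of -0.13 (all genes -0.00).

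The other H4 genes lay on the same side and were not called by edgeR at 0.005. HIST2H4A had 11.8 and 25.0 CPM in the drug naive and DMSO lines, 12.5, 15.4 and 15.5 in the early stage lines and 9.60 and 11.4 in the late stage lines. The control lines differed from each other more than either did from the DasR lines nearest to them, and the late stage log2 fold change of -0.82 (SE 0.32) had an edgeR adjusted p of 0.0853. It was -1.24 without the drug naive line and -0.21 without the DMSO line. With the filter lowered to 1 CPM, 51 members could be fitted, and all 9 H4 genes among them, HIST2H4A and HIST2H4B included as separate genes, were lower in the late stage than in controls (median log2 fold change -0.61, from -1.44 to -0.42). Over all members fitted 36 of 51 were lower (median -0.21, all genes -0.01), with 4 of 5 for H1, 7 of 13 for H2A, 11 of 17 for H2B and 5 of 7 for H3. For the early stage, 4 of the H4 genes were higher and 5 lower. HIST1H4J had 4.14 and 4.08 CPM in controls and 2.69 and 3.06 in the late stage lines, and HIST1H4K 5.86 and 6.07 against 3.46 and 3.38. In that fit the late stage adjusted p by edgeR was 0.0338 for HIST1H4K and 0.0396 for HIST1H4I. HIST1H4C, at 2.43 and 2.04 in controls against 1.44 and 1.85, rests on 30 to 89 counts a library. The lowest late stage value in that fit was HIST3H2BB, an H2B gene, with 58 counts in each control and 14 to 35 in the DasR lines (log2 fold change -1.76, SE 0.36).

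No member passed the edgeR test at either threshold between late and early stage lines, where 0 members and 0% of all genes were called at an FDR of 0.005. At 0.05 it called 0 members beside 12.7% of all genes (6.60% higher and 6.10% lower), and the smallest adjusted p of a member was 0.113. Unadjusted, 5 members and 3450 genes had a p under 0.05, and DESeq2 called 0 members and 1135 genes at 0.005. Among the members 18 were lower (all 4 HIST2H2AA and HIST2H4 copies among them) and 4 higher in the late stage. Their median log2 fold change was -0.21 (all genes -0.01), 49.3% of all tested genes were higher, and the difference was not tested. The lowest was HIST2H2AA4 at -0.58 (SE 0.21), with 14.8, 22.7 and 20.6 CPM in the early stage lines and 12.8 and 13.2 in the late stage lines. HIST1H4H followed at -0.53 (SE 0.20, adjusted p = 0.121) along with HIST2H2AA3. HIST1H2AC, the most abundant H2A gene, had 64.2, 74.6 and 71.0 CPM in the early stage lines and 56.0 and 55.6 in the late stage lines (log2 fold change -0.33, SE 0.14, adjusted p = 0.149).

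The 2 control lines differed from each other in these genes. In the DMSO line 20 of 22 members (90.9%) were higher than in the drug naive line, beside 61.7% of all tested genes, with a median log2 ratio of 0.43 beside 0.07. HIST3H2A (44.4 CPM in the drug naive and 31.2 in the DMSO line) and HIST1H2BD were the exceptions. With 1 library per line this was not tested. Without the DMSO line the median log2 fold change of the members was 0.25 in early stage lines and 0.03 in late stage lines, and without the drug naive line it was -0.12 and -0.27. The direction of these medians therefore depended on which control was kept.

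Members did not vary as 1 unit over the lines. Among 231 pairs of tested members the median Pearson correlation of log2 CPM over the 7 lines was 0.32 and the lowest -0.79, with 161 pairs above 0. The genes whose pattern over the 7 lines was nearest to the mean of the members were PPP1R10 (r = 0.98), RWDD2B (0.95), CSK (0.95), PYGO2 (0.95) and ICA1L (0.94), picked from 10452 genes and described here without a test. PPP1R10 had 84.3 and 103 CPM in the drug naive and DMSO lines and 84.7 to 95.3 in the DasR lines.

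Genes that make and process histone mRNA were tested in the same fits, in which edgeR called 18.0% of all genes for the early stage and 7.98% for the late stage at 0.005, and DESeq2 33.9% and 23.9%. In a list of 22 transcription and 3′ end processing genes, 1 rose and none fell against control in the early stage, and 2 rose and none fell in the late stage, by edgeR at 0.005. At 0.05 edgeR had 8 higher and 0 lower in the early stage (all genes 22.6% and 24.0%) and 6 higher and 2 lower in the late stage (all genes 16.2% and 17.6%), and DESeq2 called 6 and 5 at 0.005. Those called by edgeR at 0.005 were SNRPE, a core protein of spliceosomal snRNPs and of the U7 snRNP (early stage log2 fold change 0.62, SE 0.10), in both stages and SNRPF, of the same ring, in the late stage (0.76, SE 0.12). Both late stage calls were lost when counts were scaled by the library total alone or only the 2 groups were fitted. SLBP, the stem-loop binding protein, was at 94.4 ± 11.4 CPM in controls, 127 ± 1.15 in early stage lines and 111 ± 0.556 in late stage lines (early stage log2 fold change 0.42, edgeR adjusted p = 0.00722). NPAT was at 61.7 ± 5.22, 80.3 ± 2.97 and 77.0 ± 2.06 CPM (0.37, adjusted p = 0.0115, edgeR). LSM11, a U7-specific subunit, was at 17.4 ± 1.09, 15.4 ± 1.36 and 9.06 ± 0.497 CPM, with a late stage log2 fold change of -0.96 (edgeR adjusted p = 0.00555). HINFP, the H4 promoter factor, was at 25.1 ± 1.26, 27.2 ± 1.49 and 21.5 ± 0.621 CPM and was not called. POU2F1, which binds the octamer, was at 34.4 ± 4.40, 30.0 ± 0.836 and 25.2 ± 2.04 CPM (late stage log2 fold change -0.47, edgeR adjusted p = 0.0368).

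Of 15 histone mRNA decay genes, 1 fell and 0 rose in the early stage by edgeR at 0.005 (DXO, a decapping exonuclease, log2 fold change -0.83, SE 0.14), and 0 were called in the late stage. At 0.05, edgeR had 6 higher and 2 lower for the early stage (all genes 22.6% and 24.0%), and 4 higher and 1 lower for the late stage (all genes 16.2% and 17.6%). DESeq2 called 3 in each stage at 0.005. Of 19 histone chaperone genes 2 rose and 0 fell in the early stage by edgeR: DAXX, which deposits H3.3 (0.61, SE 0.09), and IPO4, an importin that carries H3 and H4 (0.95, SE 0.14). In the late stage edgeR called 0 of the 19 at 0.005. At 0.05 it had 8 higher and 1 lower in the early stage (all genes 22.6% and 24.0%). The late stage had 6 higher and 0 lower (all genes 16.2% and 17.6%), and DESeq2 called 5 in each stage at 0.005. NASP, which binds H1 and the H3 and H4 dimer, was at 384 ± 31.7, 489 ± 11.1 and 451 ± 26.7 CPM in control, early and late stage lines.

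Of 28 DNA replication genes, edgeR called 4 higher and 1 lower in the early stage, beside 7.92% and 10.1% of all genes, and 1 higher and 3 lower in the late stage, beside 3.42% and 4.56%. At 0.05 edgeR had 11 higher and 2 lower in the early stage (all genes 22.6% and 24.0%). The late stage had 4 higher and 3 lower (all genes 16.2% and 17.6%). DESeq2 called 10 and 6 at 0.005. PCNA, the sliding clamp, rose from 91.3 ± 9.65 CPM in controls to 218 ± 9.40 in the early and 178 ± 16.4 in the late stage (log2 fold changes 1.24 and 0.94, SE 0.10 for both). FEN1, GINS2 and TYMS were the other early stage genes that rose by edgeR, and CDC6, a licensing factor, fell in both stages (-0.73 and -0.85). E2F1, a transcription factor of the G1 to S transition, passed edgeR's 0.005 threshold as lower in the late stage and not in the early stage (-0.94, SE 0.14), and so did CDT1 (-0.86). For E2F1 and CDT1 the early stage values were -0.11 and -0.57, and edgeR called no gene in late against early stage at 0.005, where DESeq2 called 3 of the 28. Of 16 G2 and M phase genes 0 rose and 2 fell in each stage by edgeR at 0.005, beside the shares of all genes given above: TOP2A (-0.89 and -0.82) and AURKB (-0.58 and -0.68). At 0.05, beside the shares of all genes at that threshold given above, there were 3 higher (CDK1, MKI67 and CENPF) and 3 lower in the early stage. The late stage had 1 higher and 4 lower. DESeq2 called 6 and 4 at 0.005.

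Of 12 replication-independent histone genes, which are expressed outside S phase too, 8 were tested. EdgeR called 0 in either stage at 0.005, and DESeq2 called 1 in each stage at 0.005. At 0.05 edgeR called 3 in early stage lines (all genes 46.5%) and 2 in late stage lines (all genes 33.9%). H3F3A, which encodes H3.3, was at 354 ± 21.9 CPM in controls, 489 ± 15.4 in early stage lines and 450 ± 42.1 in late stage lines (0.45, edgeR adjusted p = 0.00728). H3F3B, which encodes the same protein, was at 350 ± 62.2, 361 ± 25.1 and 353 ± 59.9 CPM. H2AFZ, the H2A.Z gene, was at 288 ± 41.8, 220 ± 15.4 and 289 ± 43.0 CPM. H1F0, the linker histone of resting cells, was near the floor in all lines, at 0.199 ± 0.012 CPM in controls, 0.093 ± 0.054 in early stage lines and 0.024 ± 0.034 in late stage lines.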

How the data were processed

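Paired reads came from RNA of 7 K562 lines, depleted of ribosomal and non-coding RNA. Alignment by the authors used STAR against hg19, and they deposited raw counts per NCBI gene. The submitters' processing notes name FastQC, featureCounts and edgeR, without versions. Deposited tables of the authors' own comparisons hold fold changes, p-values and FDR and were used only for symbols and exon lengths. The check of the deposited counts, CPM from library totals, sums and sequence searches used Python 3.11.15. Genes with 10 CPM in at least 2 libraries (10452) were fitted with edgeR 4.0.16 (TMM, quasi-likelihood test, 1 coefficient per group, R 4.3.3) with Benjamini-Hochberg adjustment over all of them, at an FDR of 0.005. DESeq2 1.42.0, other scalings, filters and left-out lines were alternatives. On simulated counts for the early stage comparison over 10452 genes, 200 of 200 genes changed by 2 on the log2 scale were called, and 0 others. Members, lists and the rule for named genes (members called, most abundant, most changed or leading a class) were chosen with earlier results of these data known. Stages follow the study's text, as the labels give only doses. No 2 lines of a group agreed within sampling noise (chi-square per degree of freedom 21.1 to 70.1).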

Additional observations from a re-analysis of the deposited data

How the results depend on the processing

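No paired analysis was possible because the labels carry no replicate numbers and lines of different groups share nothing that would pair them. Counts of calls depended strongly on the test. DESeq2 called 3548 genes and 5 members for the early stage, 2503 and 3 for the late stage, and 1135 genes in late against early stage. At an FDR of 0.05 edgeR called 4865, 3542 and 1328 genes in the same order, with 8, 7 and 0 members. Without a filter it called 2762 genes (12.1%) and 2 members for the early stage, 1287 genes and 1 member for the late stage, and 295 genes and 0 members in late against early stage. Scaling by the library total alone and a filter of 1 CPM each left 0 members in the early stage (HIST2H2BF lost). Fitting only the 2 groups compared left 257 genes and 0 members in the late stage. Leaving out 1 line at a time gave 208 to 2066 genes and 0 to 1 members in the early stage, 33 to 596 genes and 0 to 1 members in the late stage, and 0 to 198 genes in late against early stage. The lone line left in a group was then assumed to vary like the other groups. The members' median log2 fold change ranged from -0.12 to 0.25 for the early and from -0.27 to 0.03 for the late stage. The late stage log2 fold change of HIST1H4H was -1.51 to -1.42 over all 14 alternatives, with the call lost in 7. Members that did not reach 10 CPM entered only the fits with a lower filter, where their low counts limit the precision. The cause of these shifts was not tested.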
